A study of Homo sapiens with 6 samples.

Results

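The genes described here are 9 components and regulators of the complement system, C3, CFB, C1R, C1S, CFI, SERPING1, CD46, CD55 and CD59, out of 20461 protein-coding genes in the expression table. They were chosen by name as complement genes, with earlier results of these data known, and no measured value entered the rule. RNA-seq was performed on PANC1, a human pancreatic ductal carcinoma cell line, after 48 h in vehicle (0.1% DMSO, 2 libraries) or in 50 nM gemcitabine (2 libraries). DNaseI-seq, which marks open chromatin by its sensitivity to DNaseI, was performed on 1 vehicle and 1 gemcitabine library under conditions that the study describes as the same, without repeating the time. All libraries came from cultures of this unmodified line, banked from a repository and grown in DMEM with fetal bovine serum, for which the methods name charcoal-stripped and dialysed serum where appropriate. The data thus describe carcinoma cells grown without stroma or immune cells.

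Complement is a cascade of plasma proteins that tags and lyses cells and recruits leukocytes. In the classical pathway the protease C1s, activated by the protease C1r, cleaves C4 and C2. In the alternative pathway factor B (CFB) joins C3b, and all pathways meet at the cleavage of C3. Host cells hold the cascade back with soluble regulators, such as C1 inhibitor (SERPING1) and factor I (CFI), and with the membrane proteins CD46, CD55 and CD59. The liver makes most plasma complement, but epithelial cells also express several of these genes, and gemcitabine is a cytidine analog that halts DNA synthesis.

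Promoters at which the DNaseI peak lists differed, or held a peak in both conditions, are shown first, since the results on chromatin below turn on them. The sequences are from RefSeq (GRCh38.p14), run from 250 bases before to 50 bases after a transcription start, and were placed on hg19, the build of the peak lists, by an exact match found at 1 place each. RefSeq promoters were at hand for 6 of the 9 genes, 11 in all; C3, C1S and SERPING1 had no entry. Capitals mark matches, on either strand, to 4 motifs that are known to bind factors of inflammatory and stress signalling: the interferon element ISRE (GAAA, any 2 bases, GAAA), the STAT element GAS (TTCNNNGAA), the kappaB element, and AP-1 (TGANTCA). The CFB promoter (hg19 chr6:31913622-31913921, plus strand) lay in a peak in the gemcitabine list alone. So did the CD59 promoter at the representative start (hg19 chr11:33757920-33758219, minus strand), called the first CD59 promoter here. An overlapping CD59 promoter that begins slightly further upstream (hg19 chr11:33757976-33758275), not shown, lay in the same peak. Both downstream CD59 promoters (hg19 chr11:33744224-33744523, shown here for its motif matches, and chr11:33744446-33744745, minus strand) lay in peaks of both lists. The CD55 promoter (hg19 chr1:207494773-207495072, plus strand) did so as well. The CD46 promoter shown (hg19 chr1:207925133-207925432, plus strand) and one overlapping it (hg19 chr1:207925149-207925448) lay in a peak of the vehicle list alone.
CFB: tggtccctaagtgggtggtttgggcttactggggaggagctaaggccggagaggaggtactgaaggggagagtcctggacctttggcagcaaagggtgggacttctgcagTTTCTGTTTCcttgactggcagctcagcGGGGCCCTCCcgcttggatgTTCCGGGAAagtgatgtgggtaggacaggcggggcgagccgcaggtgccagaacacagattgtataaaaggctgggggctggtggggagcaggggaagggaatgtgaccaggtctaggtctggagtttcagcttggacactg
CD59, first promoter: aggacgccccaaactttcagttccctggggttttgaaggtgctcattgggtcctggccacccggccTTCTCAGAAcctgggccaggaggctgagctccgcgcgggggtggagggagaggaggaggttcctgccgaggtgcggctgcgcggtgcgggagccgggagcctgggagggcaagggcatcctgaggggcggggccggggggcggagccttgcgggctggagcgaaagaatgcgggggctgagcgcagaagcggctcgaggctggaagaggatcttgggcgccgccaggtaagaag
CD59, a downstream promoter: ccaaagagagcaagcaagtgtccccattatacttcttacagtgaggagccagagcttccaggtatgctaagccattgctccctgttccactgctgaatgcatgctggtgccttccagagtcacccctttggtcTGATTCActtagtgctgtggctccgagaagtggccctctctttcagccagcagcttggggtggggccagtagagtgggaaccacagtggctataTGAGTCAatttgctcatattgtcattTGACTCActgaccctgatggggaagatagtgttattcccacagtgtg
CD46: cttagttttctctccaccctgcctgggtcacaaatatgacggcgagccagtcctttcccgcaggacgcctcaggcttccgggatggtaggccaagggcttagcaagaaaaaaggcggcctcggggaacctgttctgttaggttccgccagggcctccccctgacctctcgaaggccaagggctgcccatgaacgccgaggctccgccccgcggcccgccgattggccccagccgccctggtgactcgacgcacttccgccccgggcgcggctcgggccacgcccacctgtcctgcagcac
CD55: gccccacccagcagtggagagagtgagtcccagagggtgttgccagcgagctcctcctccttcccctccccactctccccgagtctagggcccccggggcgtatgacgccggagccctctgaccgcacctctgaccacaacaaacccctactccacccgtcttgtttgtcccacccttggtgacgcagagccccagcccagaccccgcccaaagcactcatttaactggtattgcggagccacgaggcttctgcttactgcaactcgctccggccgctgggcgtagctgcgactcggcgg

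The CFB promoter held an ISRE match from -140 to -131, a kappaB match from -112 to -103 and a GAS match from -92 to -84, counted from the first transcribed base as 1. Over 35116 RefSeq promoters of the same length, 3.57% held an ISRE match, 11.3% a kappaB match and 7.66% a GAS match. The first CD59 promoter held a GAS match from -184 to -176, which lies from -128 to -120 in the promoter that overlaps it. The downstream CD59 promoter that is shown held 3 AP-1 matches, at -117 to -111, -23 to -17 and 4 to 10, where 7.71% of all promoters held at least 1. The other downstream CD59 promoter, in the same peaks, held none of the 4 motifs. The CD46 and CD55 promoters held none of the 4 motifs in these windows. A C1R promoter (hg19 chr12:7244440-7244739, minus strand), not shown and in no peak of either list, held a GAS match from -86 to -78. A match is a match of letters only.

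The 4 RNA libraries held 13194533 to 15766237 fragments assigned to genes. At that depth 3 fragments amount to 0.19 to 0.227 CPM, fragments scaled to the library total. For the genes below, CPM was also divided by the TMM scaling factor of edgeR (0.959 and 0.966 in vehicle, 1.05 and 1.03 in gemcitabine). The quasi-likelihood test of edgeR was applied to the 14854 genes that reached 10 fragments in all, and the 9 complement genes were among them. Differentially expressed genes were called with the cutoffs of the study, an adjusted p under 0.05, a fold change over 1.5, at least 0.1 FPKM in a condition and a difference of at least 1 FPKM. FPKM is fragments scaled to the length of the transcript and the size of the library. The study applied them to Cuffdiff results, whereas the p and the fold here came from edgeR on fragments, so the calls are not those of the study. The labels do not say whether the libraries came from separate cultures, although the methods call them biological replicates, so the p-values measure the spread between these libraries. In bulk RNA, a change in the RNA per cell and a change in the share of cells that express a gene cannot be told apart.

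Of the 9 complement genes, 3 were called differentially expressed, C3, CFB and SERPING1, and all 3 were higher after gemcitabine. Over all genes tested, 10.1% were called and 5.69% were called higher. By the adjusted p alone, 6 of the 9 were higher (C3, CFB, SERPING1, C1R, C1S and CD59) and 0 were lower. The background by this rule was large, with 38.5% of all genes past it and 18.5% higher. The count of lower genes was also 0 at an unadjusted p under 0.05 in edgeR and in DESeq2. The median log2 fold change of the 9 genes was 0.56, against 0.0068 over all genes tested. The TMM-scaled CPM ranges of the conditions did not overlap for any of the 9 genes. The same held for 69.7% of all genes, so that this count is no result about the 9 genes.

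**Figure D1:**
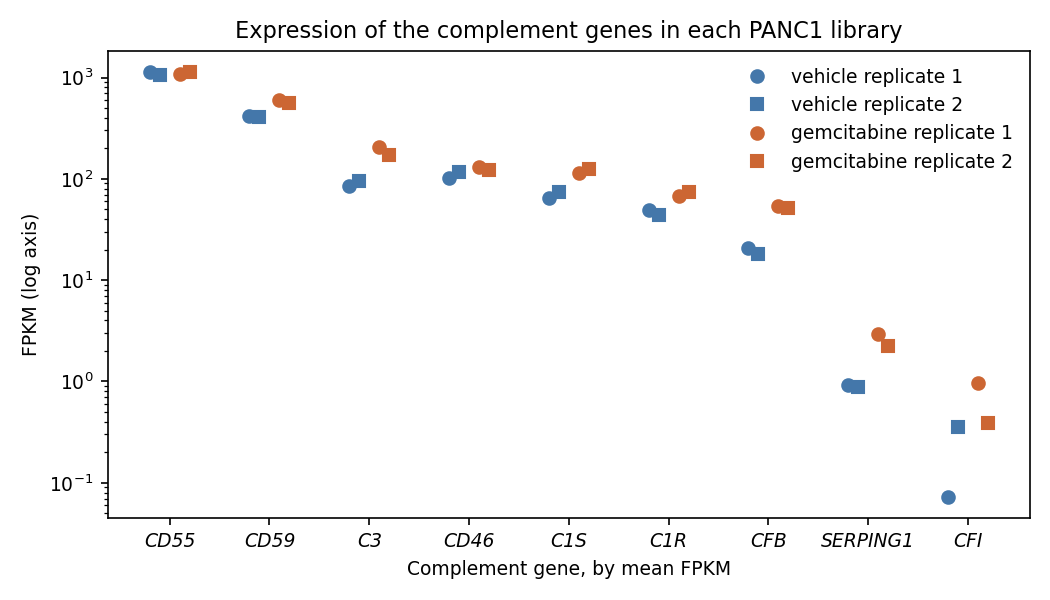
FPKM (log axis) of each complement gene in the 2 vehicle libraries (blue) and the 2 gemcitabine libraries (orange), ordered by the mean over the 4 libraries; each point is 1 library. CD55 lies at 1067 to 1134 FPKM with the conditions mixed, while C3, CFB and SERPING1 are higher in both gemcitabine libraries than in both vehicle libraries.

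CFB and C3, the components that form the C3 convertase of the alternative pathway, rose together. CFB, the protease subunit of that convertase, was measured at 289 and 264 fragments in vehicle and at 684 and 836 in gemcitabine, or 20.8 and 18 FPKM against 54.5 and 51.8 FPKM. Both gemcitabine libraries were far above both vehicle libraries. Its log2 fold change was 1.57 (SE 0.11, 95% interval 1.33 to 1.82, edgeR adjusted p = 2.02e-07), a 2.97-fold rise. CFB (hg19 chr6:31913427-31919863, plus strand) shares 2249 exon bases with a readthrough gene of the same locus, but that gene held only 0.0519 to 1.53 fragments, and the sum of both gave the same 1.57.

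C3, the protein whose cleavage all pathways share, was measured at 1281 and 1382 fragments in vehicle and 2943 and 2902 in gemcitabine. In FPKM these were 85.4 and 95.1 against 205 and 171, with no overlap between conditions. The log2 fold change of C3 (hg19 chr19:6677715-6730573, minus strand) was 1.25 (SE 0.066, 95% interval 1.11 to 1.39, edgeR adjusted p = 2.11e-08), a 2.38-fold rise with a narrower interval than that of CFB. C3 and CFB were called under every alternative way of processing that was tried. The margin was narrow with limma on log2(FPKM + 1), at an adjusted p of 0.0485 for each. The ratio of C3 to CFB in FPKM was 4.11 and 5.28 in vehicle and 3.75 and 3.3 in gemcitabine.

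C1R and C1S encode the serine proteases of the C1 complex, and by the edgeR fold both rose by less than the 1.5-fold criterion. C1S was measured at 2095 and 2292 fragments in vehicle and 2957 and 3005 in gemcitabine, and its FPKM went from 65.3 and 73.8 to 115 and 125. The log2 fold change of C1S was 0.56 (SE 0.066, 95% interval 0.42 to 0.70, edgeR adjusted p = 1.43e-05), or 1.47-fold, just short of the criterion. C1S was therefore called under 5 of 12 alternatives, among them scaling by library totals (0.67) and leaving out vehicle replicate 2 (0.60). C1R was measured at 1062 and 1016 fragments in vehicle and 1280 and 1366 in gemcitabine, or 48.8 and 44 against 67.6 and 74.5 FPKM. Its gemcitabine libraries were again both above its vehicle libraries, with a log2 fold change of 0.46 (SE 0.075, 95% interval 0.30 to 0.62, edgeR adjusted p = 2.31e-04).

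The 2 genes are neighbours on chromosome 12 (hg19 chr12:7187513-7245203, minus strand, for C1R and chr12:7096351-7178336, plus strand, for C1S). C1R also shares 672 exon bases with the C1r-like gene C1RL, between which fragments may be split. C1RL held 650 and 624 fragments in vehicle and 687 and 643 in gemcitabine, and the sum of C1R and C1RL had a log2 fold change of 0.36 (edgeR adjusted p = 9.58e-04). Applied to FPKM without a test, the fold and level criteria were met by 5 of the 9 genes, C1R and C1S in addition to the 3 called. The share of all genes that met them was not counted, so that this count is no result about the 9 genes.

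SERPING1 encodes C1 inhibitor, which inactivates C1r and C1s, and it rose from a low level. It was measured at 15 and 18 fragments in vehicle and 48 and 38 in gemcitabine, or 0.919 and 0.883 against 2.91 and 2.24 FPKM. Both gemcitabine libraries were higher, and the log2 fold change was 1.49 with a wide interval (SE 0.32, 95% interval 0.80 to 2.18, edgeR adjusted p = 0.00219), a 2.81-fold rise. SERPING1 (hg19 chr11:57364860-57386644, plus strand) was called under 10 of 12 alternatives, and with limma on log2(FPKM + 0.1) its adjusted p was 0.0524.

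CFI encodes factor I, the protease that cleaves C3b and C4b with the help of cofactors such as CD46. It was close to the limit of detection, with 2 and 13 fragments in vehicle and 18 and 12 in gemcitabine, or 0.0731 and 0.358 against 0.972 and 0.392 FPKM. In fragments, the vehicle libraries differed from each other by more than the second of them did from either gemcitabine library. The log2 fold change of CFI (hg19 chr4:110652164-110723306, minus strand) was 1.10 (SE 0.60, 95% interval -0.18 to 2.39, edgeR adjusted p = 0.162), so that no change was detectable at this depth. Without vehicle replicate 2 it was 2.92, and without vehicle replicate 1 it was 0.36.

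Of the 3 membrane regulators, CD59 alone passed the adjusted p, and none was called. CD59, a GPI-anchored protein that blocks assembly of the membrane attack complex, was measured at 6729 and 7175 fragments in vehicle and 8686 and 8170 in gemcitabine. In FPKM these were 419 and 411 against 596 and 559, with a gap between the conditions several times wider than that within each. The log2 fold change of CD59 (hg19 chr11:33724556-33758025, minus strand) was 0.39 (SE 0.065, 95% interval 0.25 to 0.53, edgeR adjusted p = 2.86e-04), or 1.31-fold. CD46, a cofactor for factor I, was measured at 2455 and 2682 fragments in vehicle and 2627 and 2587 in gemcitabine, or 103 and 116 against 130 and 123 FPKM. Its conditions lay close together, with a log2 fold change of 0.14 (SE 0.065, edgeR adjusted p = 0.113) and an interval of the fold from 0.998 to 1.21. CD46 (hg19 chr1:207925382-207968858, plus strand) overlaps the antisense gene MIR29B2CHG over 797 exon bases, and the latter held 3 to 4 fragments.

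CD55, a GPI-anchored protein that speeds the decay of C3 convertases, was the most highly expressed of the 9 genes. It was measured at 26105 and 26397 fragments in vehicle and 21645 and 23328 in gemcitabine, and at 1134 and 1067 against 1072 and 1129 FPKM. The TMM-scaled CPM values were lower in both gemcitabine libraries (1560 and 1713 against 1797 and 1733), while the FPKM ranges overlapped. Scaled to the library total without TMM, the CD55 fragments of the conditions overlapped too. The log2 fold change of CD55 (hg19 chr1:207494864-207560149, plus strand) was -0.11 (SE 0.070, edgeR adjusted p = 0.235), with an interval of the fold from 0.836 to 1.03. Without gemcitabine replicate 2 it was -0.18. Scaling by library totals raised the median log2 fold change of all genes from 0.0068 to 0.12 and the share of calls that were higher from 56.2% to 73.6%, and under it CD55 stood at 0.0004 and CD46 at 0.25 (adjusted p = 0.00622).

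**Figure D2:**
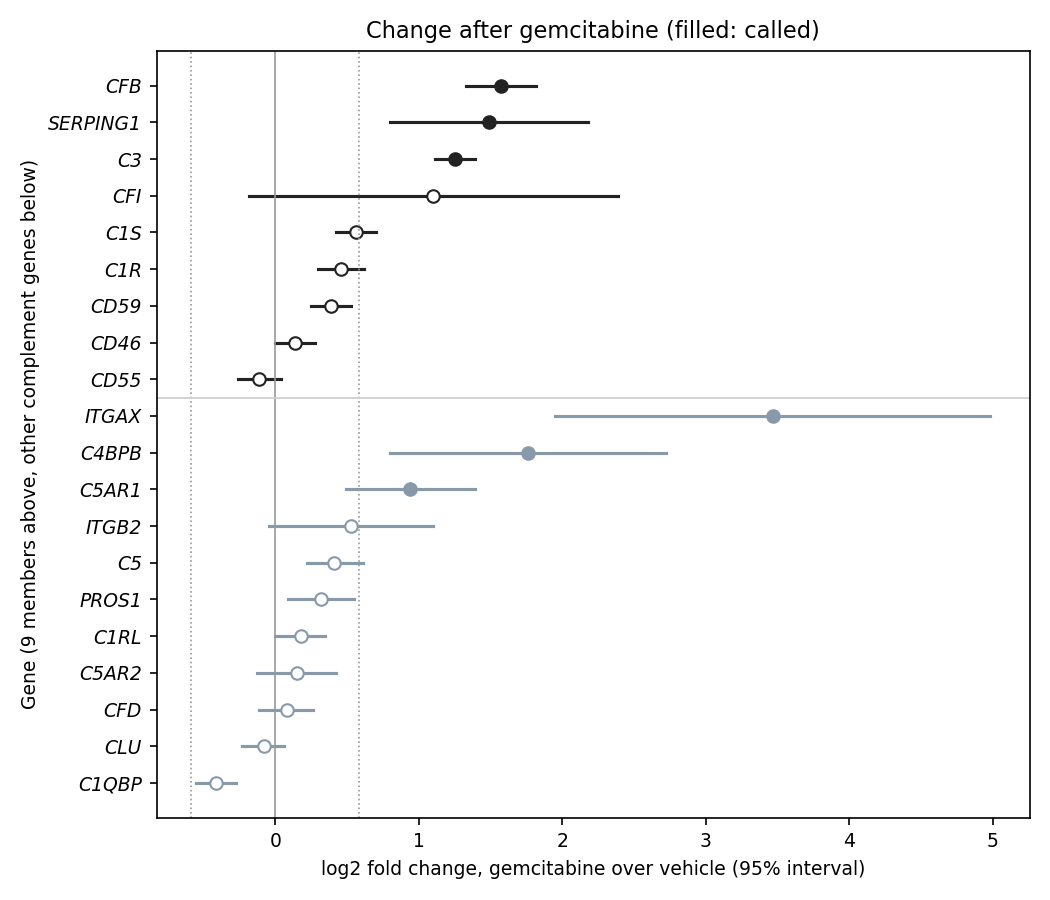
Log2 fold change of gemcitabine over vehicle with its 95% interval from edgeR for the 9 complement genes (black) and for 11 other tested complement genes that reach a mean of 1 FPKM in a condition (grey); filled points were called and dotted lines mark 1.5-fold. CFB, SERPING1 and C3 lie at 1.57, 1.49 and 1.25, whereas the interval of CD55 spans 0.

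Ordered by FPKM over the 4 libraries, which allows for transcript length, CD55 (mean 1100) came first, then CD59 (496), C3 (139), CD46 (118), C1S (94.7), C1R (58.7), CFB (36.3), SERPING1 (1.74) and CFI (0.449). Of the 14105 genes with a mean of at least 0.1 FPKM, 0.638% were above CD55, 1.55% above CD59 and 7.25% above C3. CD55 and CD59 were thus at the top of the order, C3 stood above the third membrane regulator, CD46, with overlapping ranges, and the soluble regulators were at its end. In vehicle, CD46 (110 ± 9.32 FPKM, SD, n = 2) stood above C3 (90.2 ± 6.86), and in gemcitabine C3 (188 ± 23.8) stood above CD46 (126 ± 5.62), with no overlap in either condition. CD46 and C1S (120 ± 7.01) overlapped in gemcitabine, and no other neighbours in the order did so within a condition. The ratio of CD55 to CD59 in FPKM was 2.71 and 2.6 in vehicle and 1.8 and 2.02 in gemcitabine.

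A list of 51 further complement genes was examined in the same fit, and 24 of them had enough fragments to be tested. Of these 24, 3 were called higher (C4BPB, C5AR1 and ITGAX) and 0 lower, against 10.1% of all genes called and 5.69% called higher. By the adjusted p alone 7 were higher and 1 lower, against 18.5% of all genes higher, and these counts were not tested against the background. The median log2 fold change over the 24 genes was 0.16. Of the other 27, 10 were listed at 0 in every library, among them the 3 genes of C1q (C1QA, C1QB and C1QC), the recognition unit that carries C1r and C1s, and the lectin MBL2. By role, 1 of 6 tested soluble regulators and 2 of 5 tested receptors were called, and 0 of 5 recognition proteins and proteases, 0 of 7 components and 0 of 1 membrane regulator.

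The 3 called genes were all low, and each lost its call without at least 1 of the libraries. Such fits take the spread from the replicates of the other condition alone. C4BPB, a chain of the C4b-binding protein, was measured at 8 and 17 fragments in vehicle and 55 and 24 in gemcitabine, with a log2 fold change of 1.76 (SE 0.45, edgeR adjusted p = 0.00626). The first gemcitabine library stood well above the second, and the value was 1.06 without it and no longer called. Without vehicle replicate 1 it was 1.36, also not called. C5AR1, the receptor for the anaphylatoxin C5a, was measured at 61 and 58 fragments in vehicle and 124 and 87 in gemcitabine, with a log2 fold change of 0.94 (SE 0.21, edgeR adjusted p = 0.00282). It was not called without gemcitabine replicate 1 (0.68, with under 1 FPKM of difference). Without vehicle replicate 1 (1.02) or replicate 2 (0.88) the fold was about as large, but the call was lost. ITGAX, the alpha chain of complement receptor 4, was measured at 1 and 2 fragments in vehicle and 11 and 22 in gemcitabine, and the summed fragments gave a ratio of 12.8 per library total (exact 95% counting interval 4.03 to 65.5). Without gemcitabine replicate 2, its higher library, the fitted log2 fold change was 2.88 (against 3.47 with all libraries), and the criterion of 1 FPKM was missed.

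CLU, C1QBP, CFD and C1RL were among the leading genes of this list by level. CLU, or clusterin, which binds terminal complexes, was measured at 8314 and 7498 FPKM in vehicle and 7302 and 8028 in gemcitabine, with overlapping conditions and a log2 fold change of -0.08 (edgeR adjusted p = 0.367). C1QBP, a mitochondrial protein first described as binding C1q, fell from 586 and 546 to 439 and 418 FPKM, with a log2 fold change of -0.41 (SE 0.066, edgeR adjusted p = 2.31e-04). CFD, the protease that cleaves factor B, was at 56.1 and 47.8 FPKM in vehicle and 59.9 and 66.6 in gemcitabine, with a log2 fold change of 0.08 (edgeR adjusted p = 0.516). C1RL was at 29.8 and 18.2 FPKM in vehicle and 24.5 and 28 in gemcitabine, with a log2 fold change of 0.18 (edgeR adjusted p = 0.105). Reads of C4A and C4B, which are near-identical copies, cannot be assigned with certainty, and they held 1 to 14 fragments per library. C4B, at 3 and 1 fragments in vehicle and 14 and 9 in gemcitabine, passed the adjusted p without being called (log2 fold change 2.56, edgeR adjusted p = 0.00949). C4A did not pass it (0.73, edgeR adjusted p = 0.398).

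**Figure D3:**
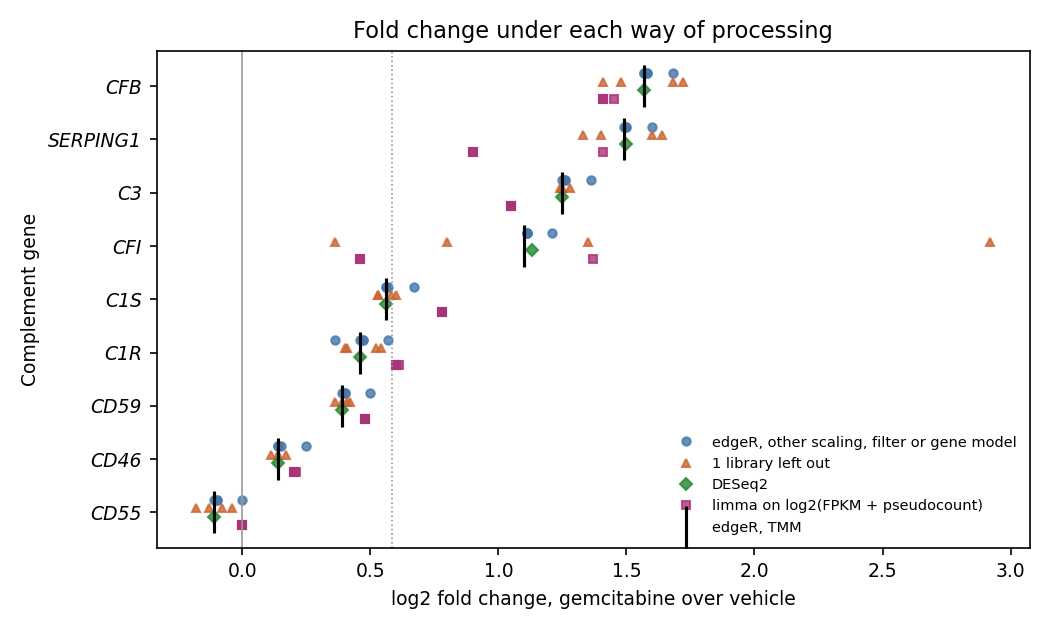
Log2 fold change of each of the 9 complement genes under each alternative way of processing, by kind of alternative; the black bar is the value from edgeR with TMM scaling and the dotted line marks 1.5-fold. CFB stays between 1.41 and 1.72 and C3 between 1.05 and 1.36, while CFI ranges from 0.36 to 2.92.

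Markers of the cell line and of other cells that make complement were examined in the same libraries. The keratins KRT7, KRT8 and KRT18 and the mesenchymal marker VIM were abundant, and the 4 keratins summed to 34081 and 34462 fragments in vehicle and 34097 and 32286 in gemcitabine. Within this sum KRT7 was lower (log2 fold change -0.18, edgeR adjusted p = 0.0426), and KRT8 (0.29, adjusted p = 0.0032) and KRT18 (0.27, adjusted p = 0.00586) were higher. KRT19, a ductal keratin, was low at 45 and 45 fragments in vehicle and rose to 94 and 88 in gemcitabine (1.13, adjusted p = 6.45e-04). Hepatocyte markers (4 genes, ALB and TTR at 0) summed to 8 to 12 fragments, and leukocyte markers (4 genes, LYZ and CD163 at 0) to 4 and 2 fragments in vehicle and 10 and 5 in gemcitabine. The 2 matched endothelial markers, CDH5 and VWF, summed to 8 and 12 fragments in vehicle and 34 and 32 in gemcitabine. VWF, with CDH5 at 0 to 3 fragments, carried this rise (log2 fold change 2.01, edgeR adjusted p = 8.94e-04). VWF (8, 9, 34 and 30 fragments), KRT8, KRT18 and KRT19 moved with the higher complement genes, and their part in the results was not tested.

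Chromatin at the complement genes was compared in the DNaseI peak lists, 9606 peaks for vehicle and 10695 for gemcitabine, from 1 library each, so that no test was possible and a peak in 1 list alone has no replicate check. The distance the study used, 5 kb, was counted here from the outermost annotated start of each gene. Within it, peaks lay at 3 of the 9 genes in the vehicle list (CFB, CD46 and CD55). In the gemcitabine list they lay at 3 (CFB, CD55 and CD59). Among 14512 genes tested and placed on the genome, 28.2% had such a peak in the vehicle list and 32.6% in the gemcitabine list, shares close to those of the 9 genes. Within 1 kb, CFB and CD59 had a peak in the gemcitabine list alone, as did 9.68% of all genes, and CD46 had one in the vehicle list alone, as did 6.02%.

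The peak at CFB in the gemcitabine list (chr6:31913120-31914026, score 80.64) covered the promoter shown above in full, from position -752 to 154 around the start of the representative transcript. The vehicle list held at CFB a peak of low score upstream, from -5500 to -4918 (chr6:31908372-31908954, score 53.16, where 50 is the lowest score in the list). At CD59 the gemcitabine list held a peak over the first promoter (chr11:33757716-33758778, score 63.93). Both lists held a higher peak over the downstream CD59 promoters (chr11:33744053-33745478, score 117.15, for vehicle and chr11:33743922-33745449, score 144.99, for gemcitabine). At CD46 the peak was in the vehicle list alone (chr1:207924878-207925864, score 69.51). The peaks that stood in 1 list alone at these 3 starts had scores of 63.93 to 80.64, near the medians of 71.1 and 73.8 over the vehicle and gemcitabine lists.

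The CD55 promoter was covered in both lists (chr1:207494210-207495410, score 98.68, and chr1:207494133-207495635, score 138.36). C1S had a peak in both lists at the start of its representative transcript (chr12:7167268-7168092, score 117.26, and chr12:7167306-7168358, score 94.82). That start lies 71671 bases from its outermost annotated start, so C1S was not among the genes counted within 5 kb above. C3, whose RNA rose 2.38-fold, had no peak within 5 kb of its start in either list. Absence from these lists does not show closed chromatin. The study pooled its peaks with public ENCODE peaks of PANC1 for more sensitivity, and those were not used here. The nearest peaks lay about 17 kb upstream of the start of the representative C3 transcript, at chr19:6737258-6738544 with a score of 176.45 in vehicle and at chr19:6736959-6738217 with 185.27 in gemcitabine. The outermost annotated start of C3 is 9912 bases nearer to these peaks, and they lay beyond 5 kb of it too. From the representative start, CFI had peaks in both lists 13 to 14 kb upstream, and C1R and SERPING1 had none within 20 kb.

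**Figure D4:**
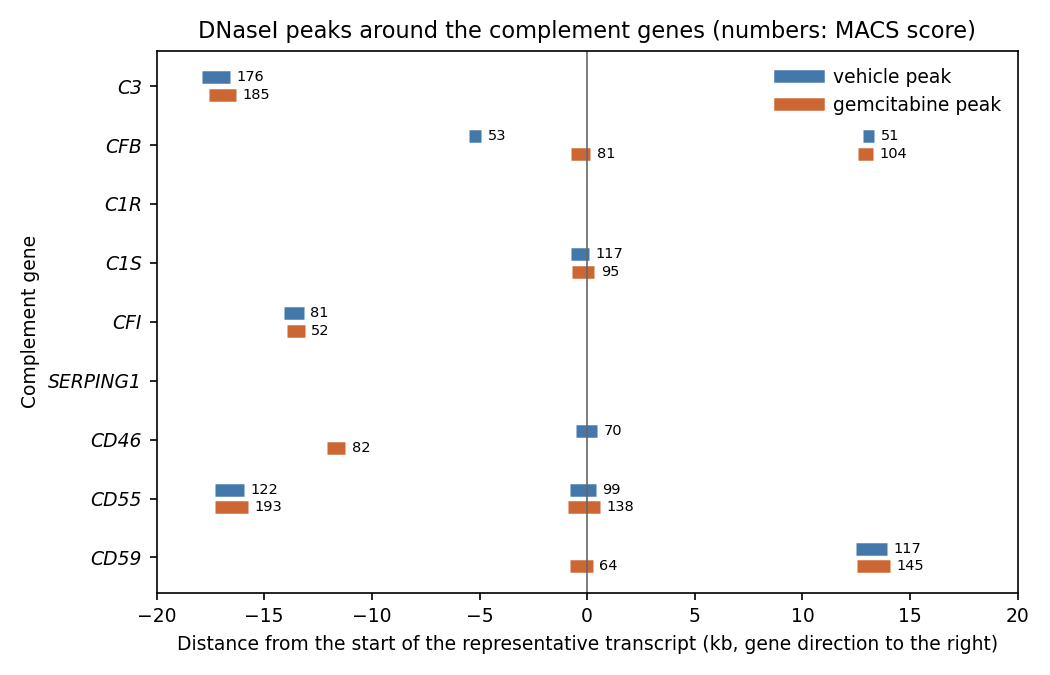
DNaseI peaks within 20 kb of the start of each gene's representative transcript (x axis, kb, gene direction to the right) in the vehicle list (blue) and the gemcitabine list (orange), 1 library each, with the MACS score beside each peak. At the start itself CFB and CD59 have only an orange peak, CD46 only a blue one, and CD55 and C1S both.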

How the data were processed

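Gene expression was measured by RNA-seq in 4 PANC1 libraries and open chromatin by DNaseI-seq in 2. Alignment to hg19 was done by the authors with TopHat2 2.0.8, and Cuffdiff 2.0.2 (versions per the submitters' processing notes) assigned the single-end reads to protein-coding genes of Gencode. The deposited table holds estimated counts of fragments per gene, shared out where reads map to several places (86.8% of values whole), and FPKM, which the authors obtained from Cuffdiff. The authors called peaks with MACS per condition, and the deposited lists give a score for each peak. The 2 per-sample columns of values rescaled by Cuffdiff were not used. The table's library index could not be tied to the labels' replicate numbers and only names a library.

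Counts were rounded and tested with edgeR 4.0.16 in R 4.3.3 (quasi-likelihood, TMM, at least 10 fragments over the libraries, Benjamini-Hochberg over all genes). DESeq2 1.42.0 and limma 3.58.1 on log2(FPKM + 1) or log2(FPKM + 0.1) were alternatives, besides other scalings, filters, starts and libraries left out. Fits without 1 library took the spread from the replicates of the other condition alone. The scripts were tested on simulated data. Intervals are at 95% and, where taken from counts, cover counting error only. Replicates of a condition differed by more than sampling noise (mean chi-square 2.17 and 5.16 per gene), and the common coefficient of variation was 0.0522. Genes were named by Ensembl identifier (19189 with a current symbol), and loci and starts were taken from a later Gencode release for GRCh37. Whether the counting used strand is not given in the sources used here. All 9 members, the called genes of the 51 others and 4 of the 5 of these with the highest FPKM are named (1 is not reported here), and C1q genes, MBL2, C4A and C4B were named after their values were seen. Members and lists were chosen with earlier results of these data known.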

Additional observations from a re-analysis of the deposited data

How the results depend on the processing

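No paired analysis was possible because the columns carry a library index that no label ties to the replicate numbers. Scaling by library totals moved the log2 fold change of CD55 to 0.0004 (adjusted p = 0.997) from -0.11. Of the 9 members, 5 were called with limma on log2(FPKM + 1) among genes with a mean of at least 0.1 FPKM, against 3. By the fold and FPKM criteria without a test, 5 passed. The shares of all genes under these settings were not counted. With limma on log2(FPKM + 1) over the genes with at least 10 fragments, 3 passed the adjusted p, against 6. These were C3 (0.0485), CFB (0.0485) and C1S (0.0487), while C1R (0.0547), SERPING1 (0.0522) and CD59 (0.0506) lay just above the threshold. At an unadjusted p under 0.05, 6 passed. Of the other complement genes, 1 was called with limma on log2(FPKM + 0.1), 1 with log2(FPKM + 1) and the mean of 0.1 FPKM, and 0 with log2(FPKM + 1) alone (9 at an unadjusted p under 0.05, 8 higher and 1 lower), against 3, and leaving out each library gave 1 to 2. The causes were not tested. Members called ranged from 3 to 4 without each library. Within 5 kb of the outermost start, peaks with a score of at least 100 lay at 0 members in the vehicle list (8.15% of all genes). In the gemcitabine list they lay at 1 member (9.89% of all genes). Any annotated start gave 5 members in the vehicle list (33.9% of all genes). From the representative start, 4 members had a peak in each list, against 28.5% (vehicle) and 33.1% (gemcitabine) of all genes. This start and the sums of overlapping genes were added after seeing the data. C3 stayed at 1.05 to 1.36 and CFB at 1.41 to 1.72 under all alternatives run for them. At this depth CFI, with 2 to 18 fragments, allows a fold from 0.884 to 5.23.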
